A study of Mus musculus with 12 samples.

Results

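Eosinophils and mast cells are granulocytes of the gut wall. Eosinophils store basic toxic proteins, among them major basic protein (Prg2) and eosinophil peroxidase (Epx), and live in the lamina propria under type 2 cytokines such as interleukin 5. Mast cells store histamine and proteases in granules and release them when antigen binds IgE held by the high-affinity IgE receptor; in mice the mucosal cells are known for the chymases Mcpt1 and Mcpt2, and those of connective tissue for Mcpt4, Cma1 and the tryptases, with carboxypeptidase A3 (Cpa3).

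The set is 8 genes of these cells: the eosinophil granule genes Prg2 and Epx, the mast cell protease genes Cpa3, Mcpt1, Mcpt2 and Mcpt4, and Fcer1a and Ms4a2, which encode the α and β chains of the IgE receptor. They were taken by gene symbol from 16593 named genes on the array, with 10 probes in all, and were called well measured where selected on the detection p-value, under 0.05 on at least 4 of 12 arrays. By that rule 1 of the 8 genes, Prg2, was well measured, against 9509 of the 16593 named genes on the array. Epx, Cpa3, Mcpt2, Mcpt4 and Ms4a2, 5 of the 8, were detected on no array, Mcpt1 was detected on 1 array and Fcer1a on 3. Just inside the threshold stood Prg2, with 4 arrays, and just outside it Fcer1a, with 3.

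RNA came from normal colon of mice of the ApcMin strain, which in both diets carried a truncating mutation of the tumour suppressor Apc, and this strain develops intestinal polyps. Tested were mice kept for 11 weeks on a methyl deficient diet (labelled MDD, 4 animals, 8 arrays). Set against them were mice given a methyl sufficient diet, also for 11 weeks (labelled CONTROL, 2 animals, 4 arrays). In both diets there were 2 samples from each animal. Methyl donors feed the synthesis of S-adenosylmethionine, and the comparison asks what their depletion does to expression in normal colon. Age is not given in the sources used here. Of 12 colon epithelial marker genes on the array, 10 were detected on all 12 arrays.

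The scanner table gives a signal in arbitrary linear units and a detection p-value, which compares a probe with the negative control probes of its array. Array medians ran from 59.4 to 71.5, and 12609 to 13241 probes per array had a detection p under 0.05. Eif2s3y, a gene of the Y chromosome, had a normalised log2 signal of 9.39 to 10.22 on 8 arrays and 4.47 to 4.56 on the other 4, and both samples were of the same sex in labelled deficient animals 1 and 2 but of opposite sex in the other 4 labelled animals. Tests are therefore given by labelled animal and also by sex-matched pair, for which the arrays of those 4 animals were rejoined by sex within a diet. An SD or SE over labelled animals does not measure the spread between mice. Tgm4, a transglutaminase of the prostate, was at 12.51 to 12.83 on both arrays of deficient animal 2 and both male sufficient arrays, and at 4.57 to 4.73 on the other 8.

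Prg2 encodes the major basic protein that forms the crystalline core of the eosinophil granule. Its signal on the deficient arrays was 41.5 and 46.1 in labelled animal 1, 49.7 and 56.3 in animal 2, 43.5 and 39.6 in animal 3, and 49.2 and 49.6 in animal 4. On the sufficient arrays it was 112.0 and 84.8 in animal 1 and 96.0 and 132.1 in animal 3. Every deficient array lay below every sufficient array, and the lowest signal detected on an array ran from 57.4 to 71.0. Detection p-values were 0.0990 to 0.467 on the 8 deficient arrays, so that none detected Prg2, and 0.00125, 0.00752, 0.00501 and 0 (as listed) on the 4 sufficient arrays, so that all did. All 4 detections that let Prg2 pass the rule were thus on the sufficient diet, so a difference between the diets was built into its being measured, and what follows on Prg2 is a description. Detection on all sufficient arrays and on no deficient array was seen in 17 of 25697 probes (0.0662%), and the opposite in 4 (0.0156%). Chosen after their values were seen, Ccl4, Ctla4, Tnfrsf17 and Vpreb3 were also among the 17, the last a gene of the B cell lineage and Tnfrsf17 a receptor of plasma cells.

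**Figure D1:**
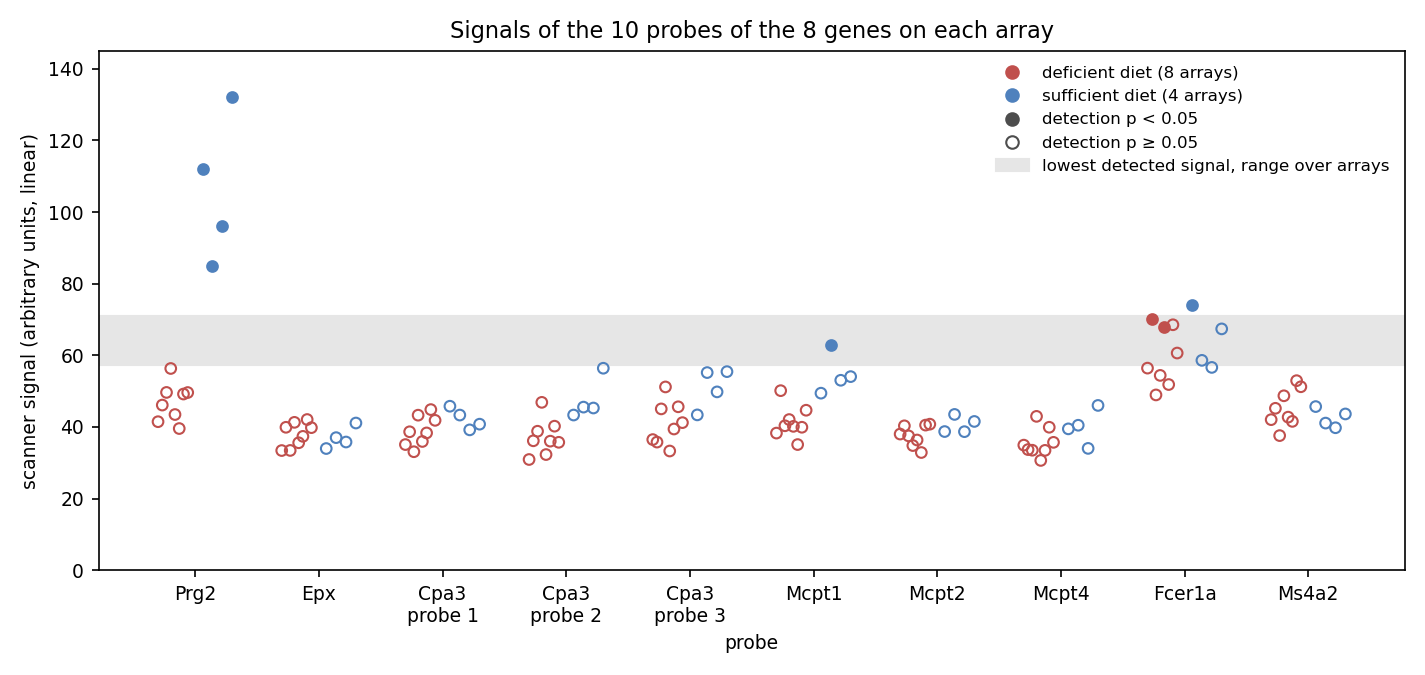
Scanner signal (linear, arbitrary units) of the 10 probes of the 8 genes on each array, with deficient arrays left of sufficient arrays for each probe. Filled points have a detection p under 0.05, and the grey band spans the lowest detected signal over the 12 arrays (57.4 to 71.0). Of the 10 probes, the probe of Prg2 is the one whose sufficient arrays (84.8 to 132.1) all lie above the band.

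After normalisation the log2 signal of Prg2 had a lowest, median and highest value of 4.60, 4.69 and 5.03 on the deficient arrays, against 6.46, 6.08, 6.15 and 6.47 on the sufficient arrays. It averaged 4.74 ± 0.16 in deficient colon (SD, n = 4 labelled animals) and 6.29 ± 0.03 in sufficient colon (SD, n = 2), and 4.74 ± 0.15 and 6.29 ± 0.25 over sex-matched pairs. The difference, deficient minus sufficient, was -1.55, with an SE of 0.11 by labelled animal and of 0.15 by sex-matched pair. Because the filter on dim probes kept Prg2 through the sufficient arrays alone, the fit over all 25697 probes with no filter is given for it: its adjusted p was 0.00476 by labelled animal and 0.0693 by sex-matched pair (limma), so that the pairs did not pass. Since no deficient array detected Prg2, the size of its difference is a bound. With each deficient array raised to its lowest detected signal, the mean of Prg2 was at least 2.07-fold lower in deficient colon after background correction. This bound has no SE and depends on the processing: without background correction the log2 difference was -0.96. Among all 13497 probes kept, 5.51% were called lower by labelled animal and 0.200% by sex-matched pair, and 3.06% had all deficient arrays below all sufficient arrays. In bulk tissue, fewer cells of a type and less RNA per cell cannot be told apart.

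On the sufficient diet, where every array detected Prg2, the male arrays read 6.46 and 6.47 and the female arrays 6.08 and 6.15. Both male sufficient arrays also had high Tgm4, as had both arrays of deficient animal 2. Values on the deficient arrays lay at background, so no order is read among them. Without the pairs of high Tgm4 the difference was -1.45, from 3 deficient pairs and 1 sufficient pair, and the part of the prostate transcripts in the level of Prg2 was not tested beyond this. Deficient minus sufficient was -1.69 in males and -1.46 in females, and with sex as a covariate it was -1.60. Leaving out 1 sex-matched pair at a time gave differences of -1.72 (without the sufficient female pair) to -1.38 (without the sufficient male pair).

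The deposited values that the authors had processed, which lie on a log2 scale around the median of each probe, placed Prg2 at -2.38 and -2.55 in deficient animal 1, 0.94 and 1.37 in animal 2, -2.55 and -2.25 in animal 3, and -0.96 and -0.94 in animal 4. Its values on the sufficient arrays were 3.75 and 3.26 in animal 1 and 3.37 and 3.79 in animal 3. The diets were separate here too, with a difference of -4.71, against -1.55 from the scanner signals after background correction and -0.96 without it. How the authors normalised and treated dim signals is not given in the sources used here. Epx, Mcpt2 and Mcpt4, detected on no array, shared the same deposited value on each deficient array (-0.0031 and -0.1735 in animal 1, -0.1662 and 0.1302 in animal 3). Prg2 moved between the arrays of those animals by the same steps, as a common low value would. The size of -4.71 thus depends on that value and is no measured fold.

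Epx, whose peroxidase makes hypohalous acids in the eosinophil granule, stayed at the level of the negative controls. Its signal ran from 33.4 to 42.1 on deficient arrays (median 38.6) and from 34.0 to 41.1 on sufficient arrays (median 36.4), with detection p-values of 0.436 to 0.820 and 0.576 to 0.779. The ranges overlapped over nearly their whole length, including on the sufficient arrays that detected Prg2. Prg3, the homologue of Prg2, and the receptors Siglecf, Ccr3 (for eotaxins) and Il5ra (for interleukin 5) were detected on no array either, and the eosinophil ribonuclease gene Ear10 on 1 deficient and 1 sufficient array. Of 19 genes of the eosinophil lists on the array, 3 were well measured: Prg2, Csf2ra and Id2, the last a transcriptional regulator found in many cell types. Csf2ra, a receptor chain shared by myeloid cells, was at -0.02 (SE 0.13, limma, adjusted p = 0.938) and Id2 at 0.19 (SE 0.12, limma, adjusted p = 0.345). Of the genes that define eosinophils in these lists, Prg2 was thus the only one detected on 4 arrays, and the values below and above describe genes, not a cell population.

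Among the 4 mast cell proteases of the set, Mcpt1, a chymase of mucosal mast cells, was the only one detected on any array. Its signal was 35.1 to 50.1 on deficient arrays (median 40.3), against 49.4, 62.9, 53.0 and 54.1 on sufficient arrays. The ranges overlapped by a single deficient array (animal 1, sample 2), and after normalisation they did not, at 4.52 to 4.74 and 4.79 to 5.37 on the log2 scale. Detection p-values were 0.261 to 0.697 on deficient arrays and 0.189, 0.0338, 0.125 and 0.198 on sufficient arrays, so 1 of 12 arrays detected it. Fitted with no filter on dim probes it did not pass (limma, adjusted p = 0.0540 by labelled animal and 0.276 by sex-matched pair), and no fold is given because both diets lay at background in the mean.

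Cpa3, the carboxypeptidase of mast cell granules, had 3 probes, none detected on any array. Their medians were 38.5, 36.1 and 40.3 on deficient arrays and 42.1, 45.4 and 52.5 on sufficient arrays, and in each the ranges of the diets overlapped. The lowest detection p of any of them was 0.0714, on sample 2 of sufficient animal 1. All 3 had a lower mean log2 signal on deficient arrays, and none passed without a filter (limma, adjusted p = 0.184 to 0.542).

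Mcpt2, another chymase of mucosal mast cells, read 32.9 to 40.8 on deficient arrays and 38.7 to 43.5 on sufficient arrays. Mcpt4, the connective tissue chymase, read 30.7 to 43.0 and 34.0 to 46.0. Neither was detected on any array. Mcpt1, Mcpt2 and Mcpt4 are paralogues that lie in one cluster of the mouse genome (RefSeq, GRCm38.p6), and cross-binding between their probes was not tested, since probe sequences were not used here.

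Fcer1a, the chain that binds IgE, gave signals around the detection limit in both diets. They were 49.0 to 70.1 on deficient arrays (median 58.5), of which 2 of 8 were detected, against 73.9, 58.6, 56.6 and 67.4 on sufficient arrays, of which 1 of 4 was. Detection p-values ran from 0.0439 to 0.144 and from 0.0175 to 0.0827, and the diets overlapped. Ms4a2, the β chain of the receptor, read 37.6 to 52.9 on deficient arrays and 39.8 to 45.7 on sufficient arrays and was detected on none. Without a filter neither passed (limma, adjusted p = 0.478 for Fcer1a and 0.612 for Ms4a2). The common γ chain Fcer1g, which other Fc receptors of myeloid cells also use, was detected on all 12 arrays, at 8.53 to 9.47 on deficient arrays and 8.98 to 9.21 on sufficient arrays on the log2 scale (difference -0.14, SE 0.18, limma, adjusted p = 0.657).

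Genes related to the 8 were taken from lists of eosinophil and mast cell genes. Of 65 on the array, members included, 22 were well measured, of which, by labelled animal, 4 were called lower and 0 higher, and by sex-matched pair 1 and 0. The median difference of the 22 was -0.02, against 0.01 over all kept probes, of which 5.51% were called lower and 5.30% higher by labelled animal (0.200% and 0.0815% by sex-matched pair). The 4 were Prg2, Hdc, Srgn and Btk, and the 1 by sex-matched pair was Prg2. Since Prg2 entered these counts through the sufficient arrays alone, where it was high, they support nothing about it. Of the other 21 well measured genes 3 were lower by labelled animal and 0 by sex-matched pair. Kit, also in these lists, had no probe under that symbol on the array.

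Hdc makes histamine from histidine, in mast cells, basophils and enterochromaffin-like cells, among others. Its log2 signal had a lowest, median and highest value of 5.15, 5.58 and 6.13 on deficient arrays, against 7.31, 6.60, 6.60 and 7.21 on sufficient arrays. All deficient arrays lay below all sufficient arrays, and 6 of 8 deficient and 4 of 4 sufficient arrays detected it. The difference was -1.33, with an SE of 0.20 (limma, adjusted p = 0.00801) by labelled animal and 0.27 (limma, adjusted p = 0.108) by sex-matched pair. Its highest values in each diet were on arrays with high Tgm4 (5.97 and 6.13 in deficient animal 2, 7.31 and 7.21 on the male sufficient arrays), and the part of those transcripts was not tested for Hdc.

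Srgn, the serglycin proteoglycan that packs granule proteases in mast cells and other leukocytes, read 5.70 to 6.24 on deficient arrays and 6.45 to 6.90 on sufficient arrays, without overlap. The difference was -0.65 (limma, adjusted p = 0.0144 by labelled animal and 0.120 by sex-matched pair), and that of its second probe was -0.80. Btk, a tyrosine kinase downstream of the B cell and IgE receptors, read 5.36 to 5.88 on deficient arrays and 6.04 to 6.36 on sufficient arrays. These normalised values did not overlap, but the scanner signals did, at 64.0 to 91.6 on deficient and 83.3 to 117.6 on sufficient arrays. Its difference was -0.62 (limma, adjusted p = 0.00434 by labelled animal and 0.142 by sex-matched pair).

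Cma1, a chymase of connective tissue mast cells, was the only well measured gene of 12 mast cell protease genes on the array. Both its probes were detected on all 12 arrays, and the brighter one read 5.82 to 6.60 on deficient arrays, against 6.28, 5.73, 5.69 and 6.22 on sufficient arrays. The diets overlapped, and the difference was 0.20 with either probe (limma, adjusted p = 0.368 and 0.377). On the sufficient diet the male arrays (6.28 and 6.22) lay above the female arrays, while on the deficient diet male arrays gave both the 2 highest (6.60 and 6.59) and the 2 lowest values (5.82 and 5.95). The tryptase genes Tpsb2 and Tpsab1 and the basophil protease gene Mcpt8 were detected on no array. Kitl, the growth factor of mast cells, was at 0.21 (SE 0.22, limma, adjusted p = 0.567) and was detected on 7 of 8 deficient and 2 of 4 sufficient arrays.

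**Figure D2:**
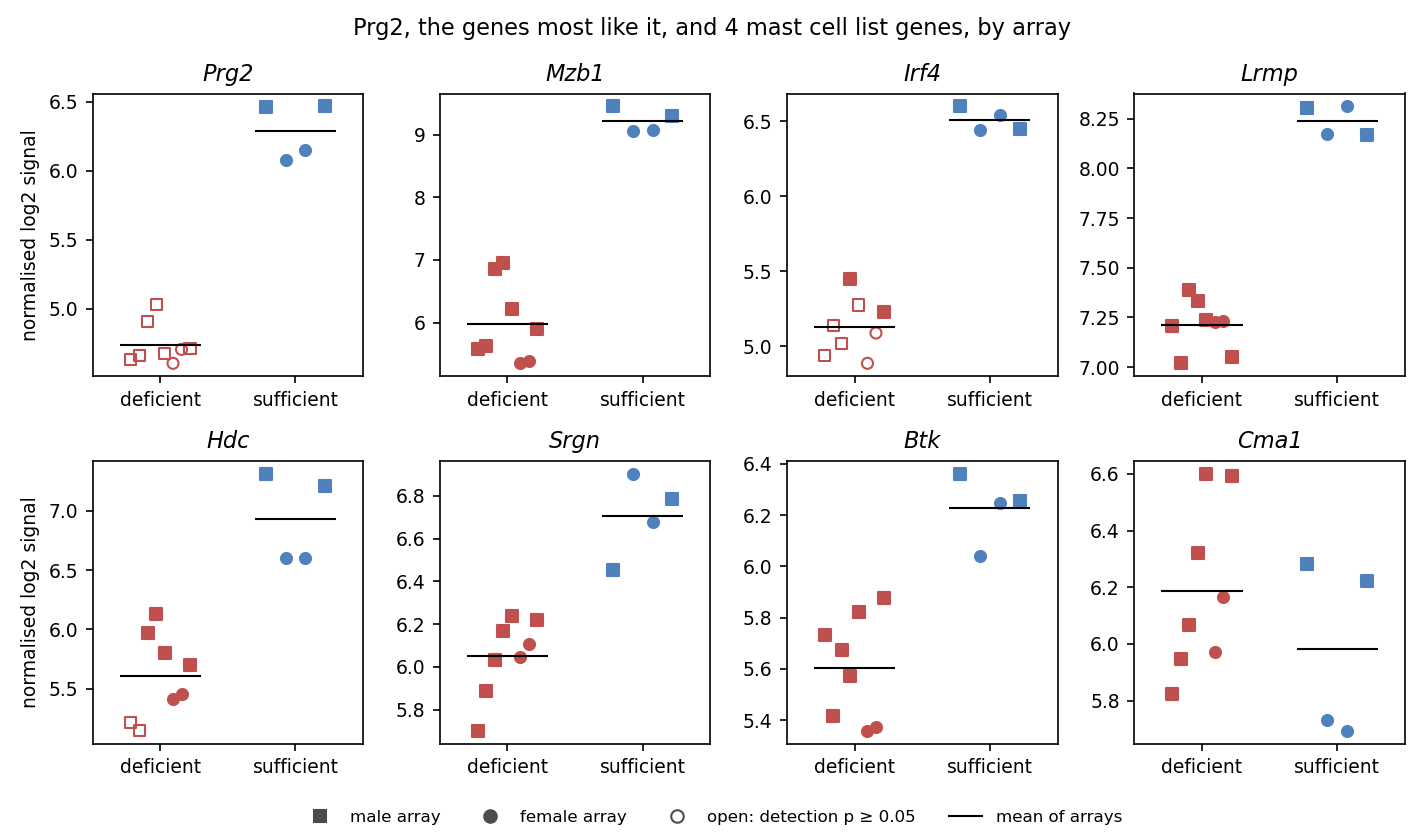
Normalised log2 signal of Prg2, of the 3 genes whose pattern was most like it (Mzb1, Irf4, Lrmp) and of Hdc, Srgn, Btk and Cma1 on each array, deficient left of sufficient; squares are male and circles female arrays, open symbols have a detection p of 0.05 or more, and lines are means of arrays. The diets do not overlap for any of these genes except Cma1 (5.82 to 6.60 on deficient and 5.69 to 6.28 on sufficient arrays). For Mzb1, Irf4 and Lrmp, picked for likeness to Prg2, a difference between the diets was built into the choice.

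Of 23 genes of the eosinophil chemokine and type 2 cytokine list on the array, 10 were well measured, of which, by labelled animal, limma called 2 lower and 1 higher, and by sex-matched pair 0 in either direction. Over all kept probes the shares were 5.51% lower and 5.30% higher by labelled animal, and 0.200% and 0.0815% by sex-matched pair. The median difference of the list was 0.02. Retnlb, 1 of the 2 called lower, was detected on 3 of 8 deficient and 4 of 4 sufficient arrays. It met the filter only with the sufficient arrays, where it was high, so its call supports nothing. The cytokine genes Il4, Il5, Il13 and Il3 were detected on no array. Ccl11, the eotaxin that keeps eosinophils in the gut wall, was detected on all arrays, at 7.77 to 8.30 on deficient arrays and at 8.01, 8.62, 8.62 and 8.22 on sufficient arrays. The diets overlapped, and its difference of -0.29 did not pass (SE 0.08, limma, adjusted p = 0.0666, and 0.492 by sex-matched pair). Ccl24, another eotaxin, was detected on 1 deficient array and no sufficient array. Il33, an alarmin that activates mast cells and type 2 lymphoid cells, was at -0.25 (SE 0.17, limma, adjusted p = 0.372).

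Ccl7, a chemokine for monocytes and eosinophils, ran from 5.12 to 7.43 on deficient arrays, against 5.55, 8.70, 8.15 and 6.51 on sufficient arrays. Its female sufficient arrays (8.70 and 8.15) lay above all others, and its difference of -0.95 passed by labelled animal (limma, adjusted p = 0.00557) and not by sex-matched pair (limma, adjusted p = 0.553). Retnla, a resistin-like protein of macrophages and eosinophils that type 2 cytokines induce, was at 1.24 (SE 0.12, limma, adjusted p = 0.00172, and 0.247 by sex-matched pair). It read 7.51 to 9.16 on deficient arrays and 6.45 to 7.98 on sufficient arrays, and the deficient arrays within the sufficient range were those of the male pair, at 7.51 and 7.70. Retnlb, the goblet cell member of that family, was at -2.48 (limma, adjusted p = 0.0251, and 0.270 by sex-matched pair), and its 2 highest deficient values, 8.40 and 8.38, were on the same pair. The differences of Retnla and Retnlb had opposite signs, but neither passed by sex-matched pair.

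**Figure D3:**
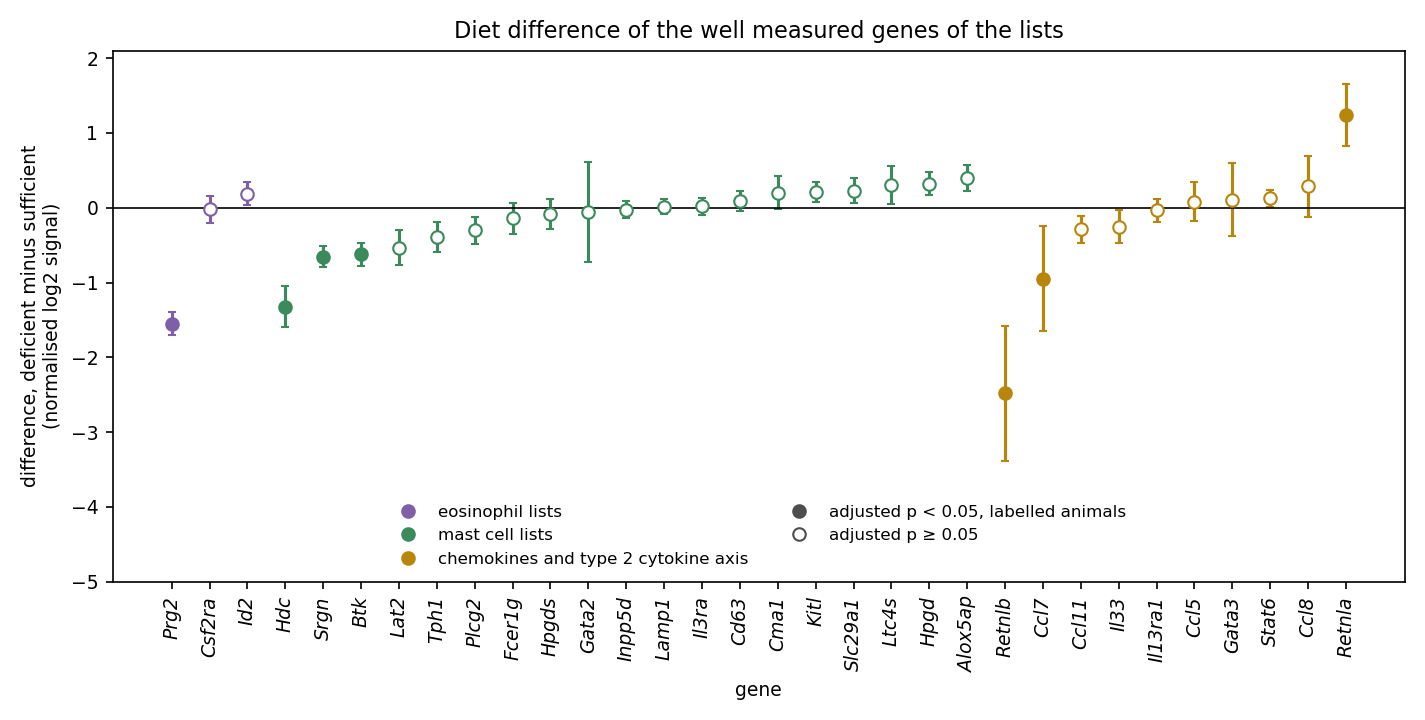
Difference between diets (deficient minus sufficient, normalised log2 signal) of the 22 well measured genes of the eosinophil and mast cell lists and the 10 of the chemokine and type 2 cytokine list. Error bars are ± 1 SE by sex-matched pair, and filled points have an adjusted p under 0.05 by labelled animal. Prg2 (which the filter kept through the sufficient arrays alone), Hdc, Srgn, Btk, Retnlb (which met the filter only with the sufficient arrays) and Ccl7 are filled below 0. Retnla is filled above 0 at 1.24.

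The 3 genes whose log2 signal followed that of Prg2 most closely over the 12 arrays were Mzb1, Irf4 and Lrmp. Pearson's r, as a measure of likeness with no test, was 0.980 for Mzb1, an endoplasmic reticulum protein that assists immunoglobulin folding, 0.976 for Irf4, a transcription factor that plasma cells need, and 0.976 for Lrmp, a lymphoid membrane protein. These points share 2 diets that stand apart, and on the 8 deficient arrays Prg2 lay at background. The next genes in the order were Kyat1 (0.971), an aminotransferase, Vpreb3 (0.965) and Egln3 (0.960), an oxygen-sensing hydroxylase, named here after their values were seen. Mzb1 read 5.35 to 6.95 on deficient arrays and 9.06 to 9.45 on sufficient arrays, without overlap. Lrmp, detected on all 12 arrays, differed by -1.03. Irf4 differed by -1.38, but only 2 of 8 deficient arrays detected it, against 4 of 4 sufficient arrays. With each array raised to its lowest detected signal, the difference of Irf4 was -1.24. Since these genes were picked for likeness to Prg2, whose values split by diet, a difference between the diets was built into the choice.

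Markers of several other cell types also differed between the diets, and their counts stand beside shares over all kept probes of 5.51% lower and 5.30% higher by labelled animal, and of 0.200% and 0.0815% by sex-matched pair. Of 12 B and plasma cell genes on the array 9 were well measured. Of these, 6 were lower and 0 higher by labelled animal, and 3 were lower by sex-matched pair. Their mean log2 signal was 6.24 to 6.90 on deficient arrays and 7.54 to 7.78 on sufficient arrays. Tnfrsf17, among the 6 and part of this mean, passed the filter through the sufficient arrays alone, so its call supports nothing. Irf4, among the 6 and the 3 and part of this mean, was detected on 2 of 8 deficient and 4 of 4 sufficient arrays. It met the filter only with the sufficient arrays, where it was high, so its calls support nothing either. The defining marker Ms4a1 of B cells was detected on no array, and Jchain of plasma cells on 0 of 8 deficient and 3 of 4 sufficient arrays. Of 12 neutrophil genes on the array 6 were well measured, with 4 lower by labelled animal and 0 by sex-matched pair. Their mean was 5.73 to 6.85 on deficient arrays and 7.32 to 8.01 on sufficient arrays, and Mpo and Elane were detected on none. S100a9, among the 4 and part of this mean, was detected on 2 of 8 deficient and 4 of 4 sufficient arrays. It also met the filter only with the sufficient arrays, where it was high, so its call supports nothing. Of 14 T and NK cell genes on the array 9 were well measured, with 3 lower by labelled animal and 0 by sex-matched pair. Their means were 5.75 to 6.19 on deficient arrays and 6.16 to 6.37 on sufficient arrays. Ctla4, among the 3 and part of this mean, likewise passed the filter through the sufficient arrays alone. Fibroblast and matrix genes went the other way, with 6 of 9 well measured genes higher by labelled animal, 1 by sex-matched pair, and means of 8.77 to 9.61 on deficient arrays and 7.97 to 8.69 on sufficient arrays. Of 6 well measured enteric neuron and glia genes 5 were higher and 0 lower by labelled animal and 0 by sex-matched pair, and of 9 macrophage and dendritic cell genes 1 was lower by labelled animal. Of 3 erythrocyte genes 2 were lower by labelled animal and 0 by sex-matched pair, with means of 7.15 to 8.59 on deficient arrays and 7.92 to 9.55 on sufficient arrays. Of 9 smooth muscle genes 0 passed in either direction, and of 11 colon epithelial genes 1 was lower. None of 7 basophil genes was well measured, and the basophil genes Mcpt8, Cd200r3 and Il4 were detected on no array. The part of these cells in the level of Prg2, Hdc, Srgn or Btk was not tested.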

How the data were processed

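Total RNA of mouse colon was hybridised to Illumina bead arrays, per the labels' protocols. The scanner table deposited by the authors gives the average bead intensity of every probe, not normalised as far as the values show. Beside it the authors deposited detection p-values. The deposited series matrix holds the authors' processed log2 values, centred per probe, and served as an alternative. Each scanner column was matched to its sample by name, and correlated best with that sample's matrix column.

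Signals were background-corrected and quantile-normalised on the log2 scale with neqc in limma 3.58.1 (R 4.3.3; negative controls inferred from detection p-values, offset 16). Probes with detection p under 0.05 on at least 4 of 12 arrays were kept, 13497 of 25697 (52.5%). Probes took symbols from the platform annotation through RefSeq (GRCm38.p6); 23978 had 1 symbol, 0 had several and 1719 had none. The kept probe with the highest mean signal stood for a gene.

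The 2 arrays of a labelled animal were averaged and the 6 means fitted with limma's lmFit and eBayes across all kept probes (deficient minus sufficient, two-sided, Benjamini-Hochberg, threshold 0.05; 4 residual degrees of freedom). The same fit was run on sex-matched pairs. The script was tested on simulated data. The number of animals limits the precision. By labelled animal, the p-values rest on means of which 4 mix arrays of opposite sex, and so do not measure the spread between mice. By sex-matched pair they rest on the spread between the rejoined pairs.

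The members and the lists were chosen with earlier results of these data known. Named are all 8 members; in each eosinophil, mast cell or signal list the genes past the threshold (at most 4); Ccl11, Ccl24, Il5, Il33, Kitl, Fcer1g, Hdc, Tpsb2, Cma1, Siglecf and Ccr3; and the 3 genes most correlated with each well measured member. Other genes are named as examples of lists.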

Additional observations from a re-analysis of the deposited data

Results flagged for a closer look

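In 2 of the 48 groups of arrays examined, 1 array stood apart from the others by Dixon's ratio of gap to range, and chance gives about 1 such group in 20. For Mcpt4 on the deficient arrays the ratio was 0.533, with the second sample of animal 2 the highest at a log2 signal of 4.65. For Ms4a2 on the sufficient arrays the ratio was 0.835, with the first sample of animal 1 the highest at 4.73. Neither probe was detected on any array.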

How the results depend on the processing

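The difference of Prg2 ran from -4.71 (the authors' matrix) to -0.96 (no background correction) over 27 alternatives. Its direction and its calls are no sign of stability, since the filter kept it through the sufficient arrays alone. Leaving out each labelled animal, 1 member stayed lower, and the probes past the threshold numbered 87 (without sufficient replicate 3; 98 without sufficient replicate 1) to 2060 (without deficient replicate 2). The 1460 probes called with labelled animals became 38 with sex-matched pairs, 522 with those pairs as a random block over 12 arrays, and 7 with sex as a covariate. With the labelled animal number as a replicate block, 638 probes passed and Prg2 stood at -1.65 (limma, adjusted p = 0.00733); the numbers 1 and 3 are shared by both diets, but the correlations of their deviations (-0.06 and -0.05) give no pairing.

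By sex-matched pair, Prg2 no longer passed, so that 0 members were lower by limma (1 at unadjusted p under 0.05 in each case), without deficient 1 (-1.52, adjusted p = 0.0677), the deficient female pair (-1.52, 0.102), the sufficient female pair (-1.72, 0.109) or the Tgm4-high pairs (-1.45, 0.0942). Probes past the threshold were 6, 0, 0 and 0 there (1382, 1704, 1141 and 1712 at unadjusted p under 0.05), and 14, 351 and 54 without deficient 2, the deficient male pair and the sufficient male pair. In 2 alternatives chosen after seeing the data, Prg2 did not pass with males only (-1.69, adjusted p = 0.367, with 0 members and 0 probes passing by limma and 982 at unadjusted p under 0.05) or with no filter on dim probes (-1.55, adjusted p = 0.0693, with 0 members and 1 probe passing, 2 members and 3043 probes at unadjusted p under 0.05). Other detection rules, also chosen after seeing the data, called 2 members well measured at detection p under 0.1 on 4 arrays, 3 with at least 1 array at 0.05, 2 with at least 3 and 0 with at least 5. Detection on all 12 arrays left no member to test. No member had a second kept probe. Signal over background limits 7 of the 8 genes, for which no size of a difference can be given.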
